A study of Mus musculus with 48 samples.

Results

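Cytosolic heat shock proteins are described here over 48 microarrays of cultured mouse lung cells. The 10 genes considered are Hspa1a, Hspa1b, Hspa8, Hspa4l, Hsph1, Hsp90aa1, Hsp90ab1, Hspb1, Dnajb1 and Bag3. They were picked by name from the annotation of the array, and each gene was represented by its probe with the highest mean over all 48 arrays. A named probe was found for 9 of the 10, out of 20738 genes with a name in all, and Hspa1b had none. These 9 genes had 12 named probes, since Hspa8 had 3 and Hsph1 had 2, and all 9 passed the filter on dim probes.

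The study profiled alveolar epithelial type II cells (AECII), the surfactant-producing cells of the alveolus, and pulmonary arterial smooth muscle cells (PASMC), the contractile cells of the vessel wall. Cells came from 8 C57Bl/6J mice, and each cell type was measured in 3 conditions on 8 single-colour arrays per group. AECII were exposed 24 h after isolation in medium with 10% serum, whereas PASMC were left for 5 days, freed of iron particles, passaged once and kept in 15% serum. The conditions were a control labelled room air (Ctrl), and a 15% extract of e-cigarette vapour given for 24 h, whose source liquid held nicotine at 0 mg/ml (0mg) or 18 mg/ml (18mg). Cell type, isolation, time in culture, passage, medium and serum therefore differed together and cannot be told apart. The labels number the arrays of a group from 1 to 8 without tying a number to a mouse, so p-values measure the spread between these arrays.

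Heat shock proteins are chaperones that hold unfolded proteins and help them to fold. The HSP70 proteins bind exposed stretches of a client with the help of HSP40 cochaperones and nucleotide exchange factors, and HSP90 takes over clients such as kinases and steroid receptors. Under heat, oxidants or other proteotoxic stress the transcription factor HSF1 binds heat shock elements, inverted repeats of the letters GAA, and raises the transcription of many of these genes.

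Promoter windows that carry such repeats are shown first, because several members hold one and it is the element that HSF1 is known to bind. RefSeq sequence of mouse build GRCm38.p6, from 250 bases before to 50 bases after the transcription start, was at hand for 7 of the 10 genes, namely Hspa1a, Hspa1b, Hspa4l, Hsph1, Hspb1, Dnajb1 and Bag3. Windows of 30 bases are printed 5′ to 3′ on the strand of the gene. Capitals mark GAANNTTC or TTCNNGAA, and both strands are covered, since each motif is its own reverse complement.
Hspa1a, chr17:34972242-34972271, minus strand: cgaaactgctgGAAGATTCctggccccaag
Hspa1b, chr17:34959324-34959353, minus strand: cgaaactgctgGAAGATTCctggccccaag
Hspb1, chr5:135887801-135887830, plus strand: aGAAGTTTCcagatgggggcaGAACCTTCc
Hsph1, chr5:149636351-149636380, minus strand: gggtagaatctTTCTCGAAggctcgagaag
Hsph1, chr5:149636287-149636316, minus strand: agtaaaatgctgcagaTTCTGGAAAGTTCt
Bag3, chr7:128523603-128523632, plus strand: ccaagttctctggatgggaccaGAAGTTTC

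The windows of Hspa1a and Hspb1 lie before the start, with the motif at -104 to -97 in Hspa1a and the pair in Hspb1 spanning -117 to -90. The motif of Bag3 lies after the start, at +43 to +50. Hsph1 has 2 annotated starts, and counted from the upstream one its first motif is at -33 to -26. Its second window holds a run of 3 alternating units at +37 to +49, in which GAANNTTC and TTCNNGAA overlap. Either motif occurred in 5 of the 7 member genes, against 17% of 27025 genes and 15.1% of 32851 promoter windows of the same length. GAANNTTC occurred in 7.86% of those windows and TTCNNGAA in 8.52%, with windows that hold both counted in each share. The run of 3 units was found in 0.603%. No match was found in the windows of Hspa4l and Dnajb1. A match describes these letters only, and occupancy by HSF1 was not measured.

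The printed windows of Hspa1a and Hspa1b are identical, and their whole 300-base promoters share 296 positions, or 98.7%. The pair encodes the stress-inducible HSP70, and the probe sequences are not part of the files used here. Whether the Hspa1a probe also binds Hspa1b transcripts was not tested, so its level is uncertain between the copies.

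Values below are the deposited log2 levels, on which 1 unit is a doubling. All arrays share the same distribution, with a median of 2.98 and a maximum of 15.89, so a level is relative to the other features of its array. A level is compared only between arrays for the same probe. A gene is called when limma's p, adjusted over all tested genes by Benjamini-Hochberg, is under 0.05 in a two-sided test.

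Marker genes were checked against the labels before the results. Krt18, an epithelial keratin, was at 15.28 to 15.53 in AECII arrays, against 4.20 to 12.09 in PASMC arrays, and Acta2, smooth muscle actin, was at 10.93 to 12.83 in AECII arrays, against 14.33 to 15.46 in PASMC arrays. In control cells 8 of 9 tested type II markers (all but Etv5, which was lower), 6 of 6 epithelial, 6 of 6 mesothelial and 3 of 3 tested airway markers were higher in AECII, and 8 of 8 smooth muscle and 7 of 7 fibroblast markers were lower. The mean of the 6 mesothelial markers spanned 9.32 to 10.49 in AECII arrays, against 2.70 to 4.34 in PASMC arrays, while the 4 airway markers averaged up to 8.89 in 1 PASMC array of 0mg. The airway marker Scgb1a1 was at 15.59 to 15.89 in AECII arrays, against 1.90 to 11.20 in PASMC arrays. The 7 macrophage markers averaged up to 8.16 in AECII and 9.07 in PASMC arrays, and the 6 endothelial markers up to 5.51 and 7.27. Slc34a2, a type II phosphate carrier, stayed at 1.75 to 4.12 in AECII arrays. The part of these other cell types in the differences between AECII and PASMC was not tested, and in bulk RNA a different share of cells and a different level per cell cannot be told apart. The PASMC arrays were uneven: the mean of 6 epithelial markers was 5.38 to 7.38 in 9 of them, 3 per condition, and 2.86 to 4.03 in the other 15.

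The main difference within this gene set was that between the cell types. Of the 9 measured genes, 7 were called higher in AECII in each of the 3 conditions and 0 were called lower. The 7 were Hspa1a, Hspa4l, Hsp90aa1, Hsp90ab1, Hspb1, Dnajb1 and Bag3. The comparison has a high background, since 59.2% of all tested genes were called at Ctrl, 58.7% at 0mg and 58.3% at 18mg, with 27.9%, 27.9% and 28% higher in AECII and 31.3%, 30.9% and 30.3% lower. The median difference of the 9 genes was 0.47 at Ctrl, 0.47 at 0mg and 0.47 at 18mg, against -0.04, -0.04 and -0.03 over all tested genes. The median size of the difference, without its sign, was 0.47 at Ctrl over the 9 genes, against 0.50 over all tested genes.

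**Figure D1:**
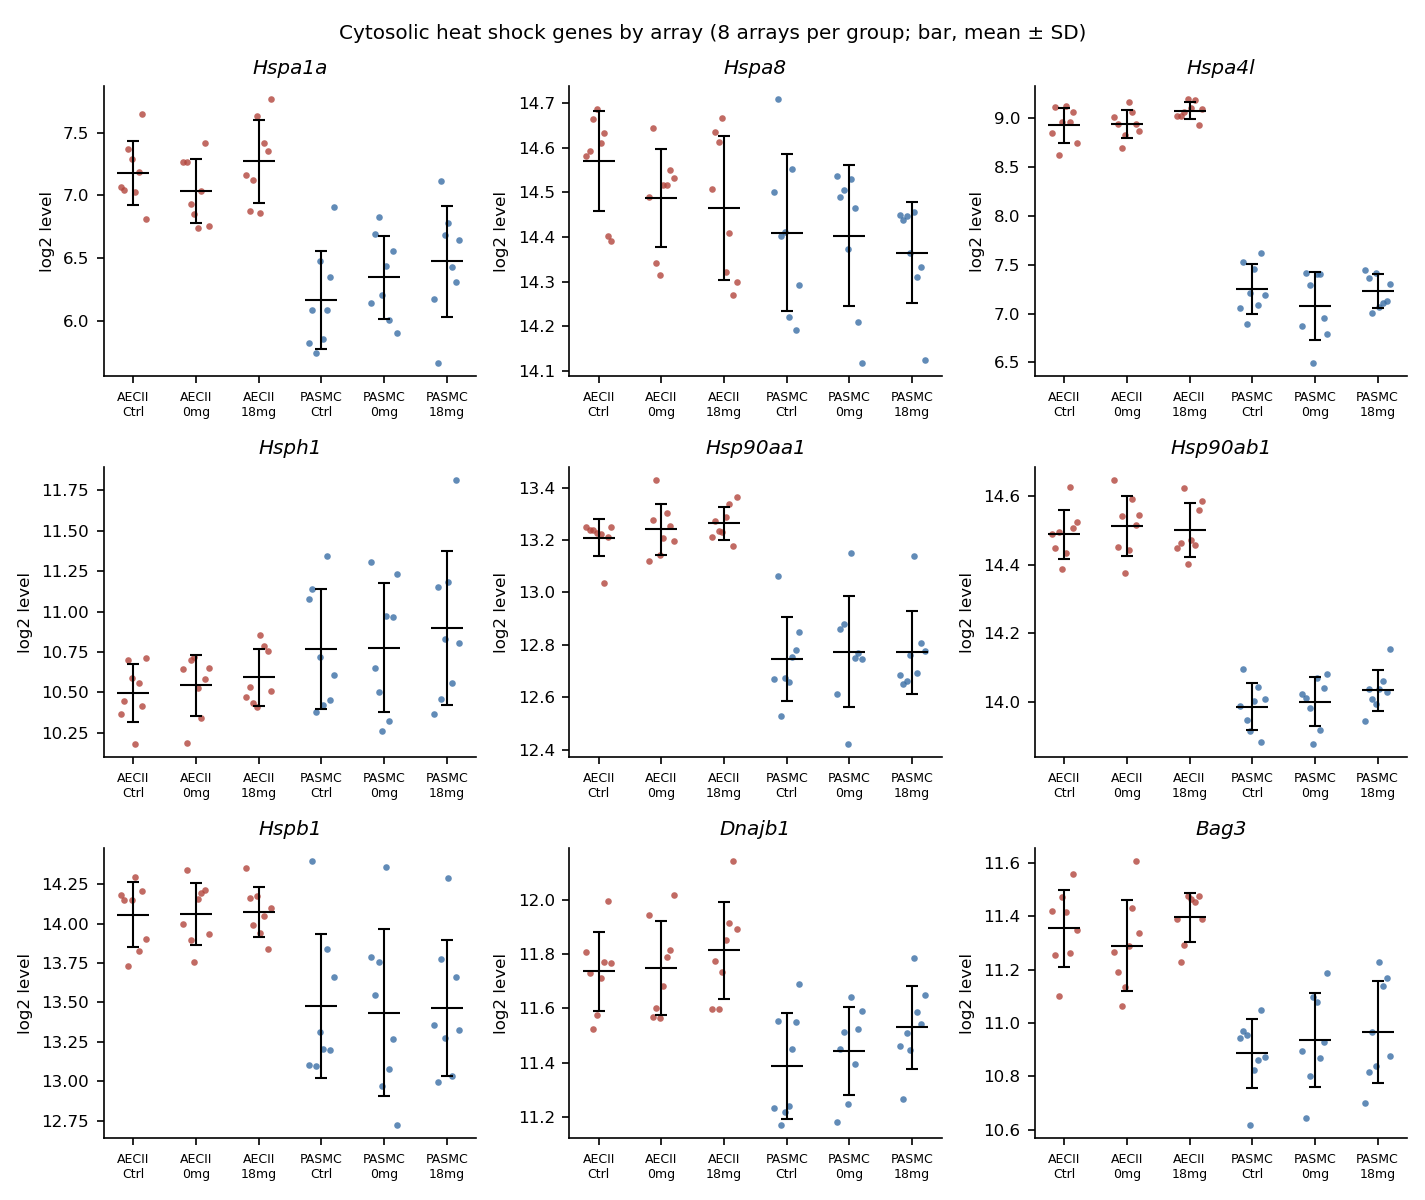
Log2 level of each gene in every array (points), with the mean and SD of each group of 8 arrays (bars), AECII in red and PASMC in blue. Hspa4l and Hsp90ab1 separate the cell types in all 3 conditions, while the conditions of 1 cell type lie on top of each other.

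The HSP70 family showed the widest spread of cell type differences. Hspa4l encodes a relative of HSP110 that acts as a nucleotide exchange factor for HSP70, and it had the largest difference. It had a lowest, median and highest level of 8.62, 8.96 and 9.12 in control AECII, against 6.89, 7.20 and 7.62 in control PASMC. With 0mg extract it was at 8.70, 8.94 and 9.16 in AECII, against 6.49, 7.12 and 7.41 in PASMC. With 18mg extract it was at 8.93, 9.08 and 9.19 in AECII, against 7.01, 7.22 and 7.45 in PASMC. Every AECII array lay above every PASMC array. The difference was 1.67 at Ctrl (SE 0.11, adjusted p = 7.13e-18, limma), 1.86 at 0mg and 1.84 at 18mg, or 3.19-fold, 3.63-fold and 3.59-fold.

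Hspa1a, the inducible HSP70, had group means of 7.04 to 7.27 in AECII, against 6.17 to 6.47 in PASMC. In control AECII its lowest, median and highest level were 6.81, 7.13 and 7.65, against 5.74, 6.09 and 6.91 in control PASMC. With 0mg extract the values were 6.74, 6.99 and 7.42 in AECII, against 5.90, 6.32 and 6.83 in PASMC. With 18mg extract they were 6.86, 7.26 and 7.77 in AECII, against 5.66, 6.54 and 7.12 in PASMC. The cell types overlapped in each condition, and over all conditions 4 of 24 PASMC arrays fell within the AECII range. The difference was 1.02 at Ctrl (SE 0.17, adjusted p = 1.39e-06, limma), 0.69 at 0mg (adjusted p = 0.000504) and 0.80 at 18mg (adjusted p = 7.34e-05).

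Hspa8 encodes the constitutive HSP70 (HSC70), which is present in unstressed cells. It was at 14.39, 14.60 and 14.69 in control AECII, against 14.19, 14.41 and 14.71 in control PASMC (lowest, median and highest). The highest control array was a PASMC array, and over all conditions 19 of 24 PASMC arrays lay above the lowest AECII array. The difference was 0.16 at Ctrl (95% interval 0.01 to 0.31, adjusted p = 0.0665, limma), 0.08 at 0mg (adjusted p = 0.352) and 0.10 at 18mg (adjusted p = 0.266), and none was called. Another of its probes gave 0.32, 0.23 and 0.28 (Ctrl, 0mg, 18mg), all called, and the last one gave 0.35, 0.09 and 0.27, none called. The call for Hspa8 thus differed between probes of the gene, and without PASMC control array 2 the chosen probe was called at Ctrl (0.20, adjusted p = 0.0186).

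Hsph1 encodes HSP110 itself, an exchange factor and holdase partner of HSP70. It was the only member with a lower mean in AECII than in PASMC in all 3 conditions. In control AECII it was at 10.18, 10.50 and 10.71, against 10.38, 10.66 and 11.35 in control PASMC (lowest, median and highest). The ranges overlapped, with the PASMC arrays reaching higher. The difference was -0.27 at Ctrl (95% interval -0.59 to 0.05, adjusted p = 0.145, limma), -0.23 at 0mg (adjusted p = 0.215) and -0.30 at 18mg (adjusted p = 0.103), and none was called. Its second probe gave -0.24, -0.19 and -0.13, none called.

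Both cytosolic HSP90 genes were higher in AECII by nearly the same amount. Hsp90ab1, the constitutive form, was at 14.39, 14.49 and 14.63 in control AECII, against 13.88, 14.00 and 14.10 in control PASMC. The groups did not overlap at Ctrl, nor at 0mg (14.38 to 14.65 in AECII, against 13.88 to 14.08 in PASMC) or at 18mg (14.40 to 14.62 in AECII, against 13.95 to 14.15 in PASMC). The difference was 0.50 at Ctrl (SE 0.05, adjusted p = 1.84e-12, limma), 0.51 at 0mg and 0.47 at 18mg, and the SD over the 24 arrays was 0.08 in AECII and 0.07 in PASMC. Hsp90aa1, the more stress-responsive form, was at 13.04, 13.23 and 13.25 in control AECII, against 12.53, 12.71 and 13.06 in control PASMC. One control AECII array lay just below the highest control PASMC array, and apart from these the control groups were separate. Hsp90aa1 differed by 0.46 at Ctrl (SE 0.07, adjusted p = 7.22e-07, limma), 0.47 at 0mg and 0.49 at 18mg.

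Hspb1 encodes HSP27 in humans and HSP25 in mice, a small heat shock protein that holds unfolded clients and binds actin. In control AECII it was at 13.73, 14.15 and 14.30, against 13.09, 13.26 and 14.40 in control PASMC (lowest, median and highest). Most control PASMC arrays lay below the AECII range, yet the highest control array of all was a PASMC array. The difference was 0.58 at Ctrl (SE 0.18, adjusted p = 0.00481, limma), 0.63 at 0mg (adjusted p = 0.00243) and 0.61 at 18mg (adjusted p = 0.00303). The SD over 24 arrays was 0.18 in AECII and 0.45 in PASMC, the largest in PASMC among the members.

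The cochaperones Dnajb1 and Bag3 were higher in AECII as well. Dnajb1 encodes the HSP40 that hands clients to inducible HSP70, and it was at 11.53, 11.75 and 12.00 in control AECII, against 11.17, 11.34 and 11.69 in control PASMC. These ranges overlapped, and the difference was 0.35 at Ctrl (SE 0.09, adjusted p = 0.000719, limma), 0.31 at 0mg and 0.28 at 18mg. Bag3 encodes an exchange factor that couples HSP70 to selective autophagy, and it was at 11.10, 11.38 and 11.56 in control AECII, against 10.62, 10.91 and 11.05 in control PASMC. The control groups of Bag3 did not overlap, and the difference was 0.47 at Ctrl (SE 0.08, adjusted p = 3.39e-06, limma), 0.35 at 0mg and 0.43 at 18mg.

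Separation without overlap was found at Ctrl for 3 of the 9 genes (Hspa4l, Hsp90ab1 and Bag3), all with AECII above. Of all tested genes, 28% were separated in either direction at Ctrl, and 13.3% with AECII above. At 0mg separation held for 2 (Hspa4l and Hsp90ab1), against 26.7% in either direction and 12.6% with AECII above. At 18mg it held for 4 (these and Hsp90aa1 and Bag3), against 27.3% and 13%. In the order of the 6 group means, the 3 AECII groups stood above the 3 PASMC groups for every member but Hsph1. No neighbours in that order within 1 cell type were called. Between the cell types, only groups of the same condition were tested.

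**Figure D2:**
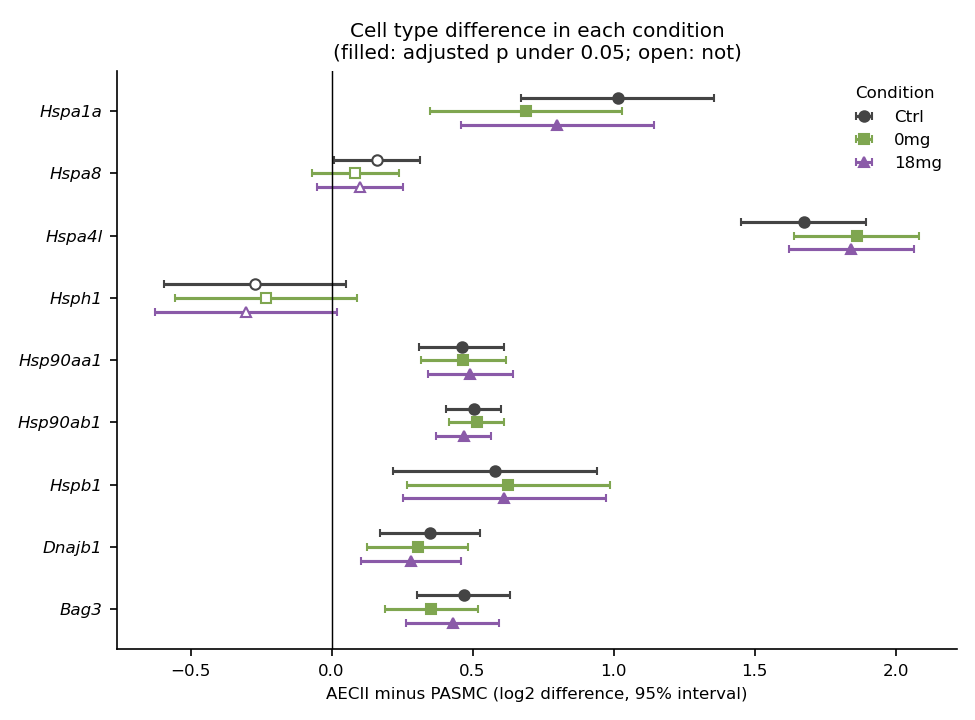
Difference between AECII and PASMC (log2, horizontal axis) with its 95% interval for each gene at Ctrl, 0mg and 18mg, with filled symbols for an adjusted p under 0.05. The 7 called genes lie right of 0 in each condition, from 0.28 for Dnajb1 to 1.86 for Hspa4l, and the points of Hsph1 lie left of 0.

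The question whether vapour extract raised the heat shock genes was asked within each cell type. A gene that was not called is not shown to be unchanged. In AECII none of the 9 genes was called with 0mg extract, with 18mg extract, with both extracts pooled against Ctrl, or between the extracts. The background was 0% in each of these 4 comparisons. At an unadjusted p under 0.05 the count was also 0 of 9, against 3.37% of all tested genes for 0mg, 2.36% for 18mg, 2.84% for both extracts and 3.14% for 18mg against 0mg. Among the chosen probes in AECII the largest differences from Ctrl were -0.15 for Hspa1a with 0mg (95% interval -0.44 to 0.15) and 0.15 for Hspa4l with 18mg (95% interval -0.02 to 0.31). Over the 9 genes, the intervals of the 18mg difference ran from -0.26 at the lowest end to 0.38 at the highest.

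Means of the inducible genes in AECII show how close the conditions were. Hspa1a averaged 7.18 ± 0.26 at Ctrl, 7.04 ± 0.26 with 0mg and 7.27 ± 0.33 with 18mg (SD, n = 8 each). Hspb1 averaged 14.06 ± 0.21 at Ctrl, 14.06 ± 0.20 with 0mg and 14.08 ± 0.16 with 18mg. Dnajb1 averaged 11.74 ± 0.14 at Ctrl, 11.75 ± 0.17 with 0mg and 11.81 ± 0.18 with 18mg. In each of these genes the 3 ranges overlapped over most of their length.

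The constitutive Hspa8 had the largest negative difference with 18mg extract in AECII, at -0.10 (95% interval -0.26 to 0.05), and -0.08 with 0mg. Its other probes gave -0.04 and -0.06 with 18mg, and -0.10 (SE 0.06) and -0.30 (SE 0.20) with 0mg, none called. With 18mg extract Hsph1 differed by 0.10, Hsp90aa1 by 0.06, Bag3 by 0.04 and Hsp90ab1 by 0.01. The SEs of both HSP90 genes were the smallest, and the interval of Hsp90ab1 ran from -0.10 to 0.13.

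In PASMC none of the 9 genes was called in the same 4 comparisons either. The background was 0% for 0mg, 0.0271% for 18mg (4 genes), 0.00677% for both extracts (1 gene) and 0% for 18mg against 0mg. At an unadjusted p under 0.05 the count was 0 of 9, against 2.82%, 4.04%, 4.08% and 1.99% of all tested genes in that order. The largest difference was that of Hspa1a with 18mg, 0.31 (95% interval -0.09 to 0.70), which in fold terms spans 0.941 to 1.63. With the 11 PASMC arrays whose Sftpc level was above 6 left out, the Hspa1a difference was larger, at 0.64 with 18mg (SE 0.17, adjusted p = 0.688, limma) and 0.48 with 0mg (SE 0.17), against the 0.31 and 0.18 of all 24 arrays, and neither was called. In that setting 0 of 14756 tested genes were called with 0mg or 18mg. The counts at an unadjusted p given above refer to all 24 arrays. Hspa1a averaged 6.17 ± 0.39 at Ctrl, 6.35 ± 0.33 with 0mg and 6.47 ± 0.44 with 18mg (SD, n = 8 each), and the 18mg arrays held both the lowest and the highest of the 24 values, 5.66 and 7.12.

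Dnajb1 averaged 11.39 ± 0.20 at Ctrl, 11.44 ± 0.16 with 0mg and 11.53 ± 0.15 with 18mg in PASMC, and its 18mg difference was 0.14 (95% interval -0.05 to 0.34). Without the same 11 arrays that difference was 0.33 (SE 0.13, adjusted p = 0.941, limma), and the 0mg difference was 0.18, against 0.05 with all arrays. Hspa4l had the largest negative PASMC value, -0.18 with 0mg (95% interval -0.46 to 0.10), against -0.02 with 18mg. The ranges of Dnajb1 and of Hspa4l overlapped between all 3 conditions. Hspb1 and Hsph1 were the least precise, with SEs of 0.23 and 0.20, so that the 18mg interval ran from -0.49 to 0.46 for Hspb1 and from -0.29 to 0.55 for Hsph1. The second Hsph1 probe gave -0.003 with 18mg (SE 0.22), against 0.13 for the chosen one. Both HSP90 genes were measured more closely in PASMC, with 18mg differences of 0.03 for Hsp90aa1 (-0.17 to 0.22) and 0.05 for Hsp90ab1 (-0.07 to 0.16).

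**Figure D3:**
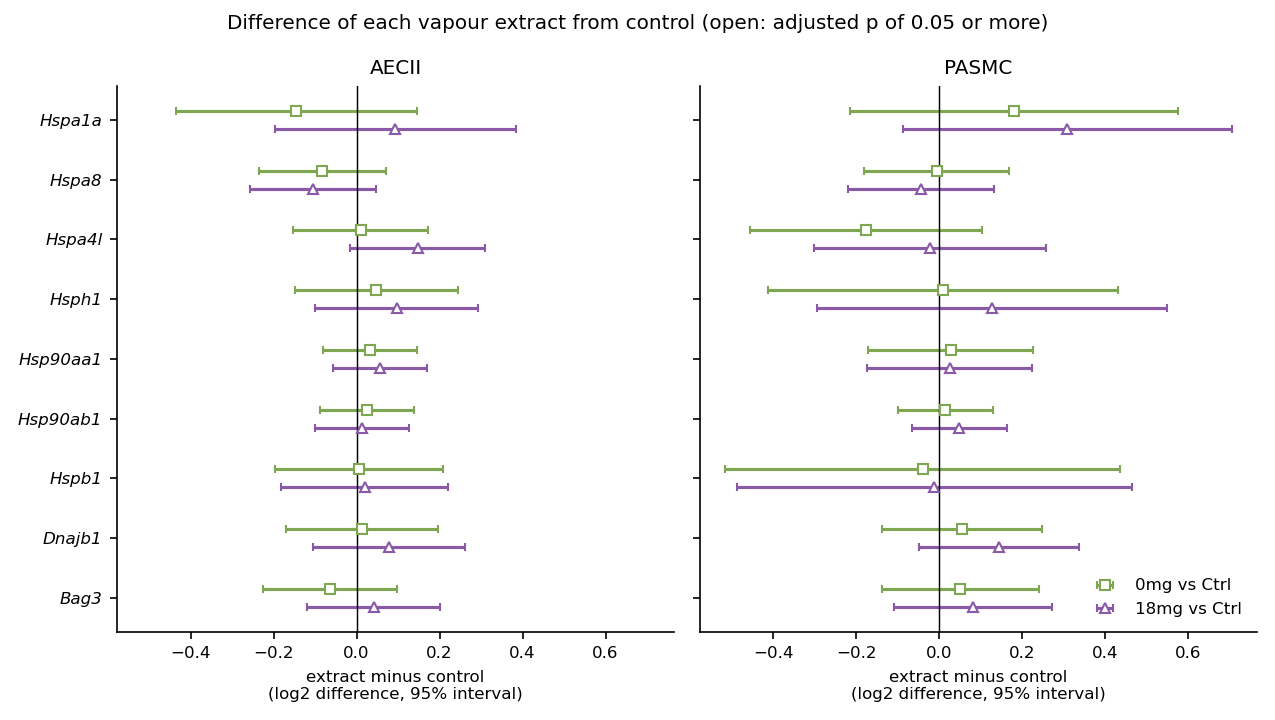
Difference from Ctrl (log2, horizontal axis) with its 95% interval for 0mg and 18mg extract in AECII (left) and PASMC (right). All 36 intervals include 0, and the widest belong to Hspb1, Hsph1 and Hspa1a in PASMC.

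The response itself was compared between the cell types by the difference of the differences from Ctrl. For 0mg extract this was largest in size for Hspa1a, -0.33 (95% interval -0.81 to 0.16), and for 18mg it was -0.22 for the same gene (-0.70 to 0.27). Without the 11 PASMC arrays with Sftpc above 6 these values for Hspa1a were -0.62 and -0.54, and 0 of 14777 tested genes were called. No count at an unadjusted p is given for that setting. Hspa4l gave 0.19 for 0mg and 0.17 for 18mg. With all 48 arrays, none of the 9 genes was called in either comparison or had an unadjusted p under 0.05. The background called was 0%, and 2.66% (0mg) or 2.59% (18mg) of genes had such a p.

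The wider chaperone network was read from 10 lists with 112 genes, of which 110 had a probe. In AECII 106 of them were tested and in PASMC 108, and none was called in any comparison with extract. The counts at an unadjusted p under 0.05 were 6 of 106 for 0mg and 2 of 106 for 18mg in AECII, where 3.37% and 2.36% of all tested genes had such a p. In PASMC the counts were 2 of 108 for each extract, against 2.82% of all tested genes for 0mg and 4.04% for 18mg. Between the cell types at Ctrl, 39 of 105 tested genes were higher in AECII, 32 lower and 34 not called. Over all tested genes 27.9% were higher at Ctrl and 31.3% lower, and the counts of each list below stand beside these shares.

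HSP90 cochaperones had 7 of 15 tested genes higher in AECII at Ctrl and 1 lower, with 8 and 2 at 0mg and 7 and 3 at 18mg. Fkbp4, an immunophilin of steroid receptor complexes, was higher by 1.35, Cdc37l1, a relative of the kinase adaptor Cdc37, by 0.76, Ptges3, the cochaperone p23, by 0.65 and Ahsa1, an activator of the HSP90 ATPase, by 0.53. Fkbp8, an immunophilin of the outer mitochondrial membrane, was the lower one (-0.22). Their median was 0.23, and that over all tested genes was -0.04.

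Among HSP40 cochaperones, 7 of 14 were higher in AECII and 5 lower. Dnajc5, which encodes the cysteine string protein of secretory vesicles, was higher by 0.90, the ribosome-associated Dnajc2 by 0.80, Dnaja1 by 0.55 and Dnajc21 by 0.51. Dnajb5 (-1.11), Dnaja4 (-0.88), Dnajb4 (-0.79) and Dnajc8 (-0.50) were lower. The list was thus divided, and the HSP40 member Dnajb1 stood with the higher genes.

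Among the small heat shock proteins other than Hspb1, 1 of 8 tested genes was higher at Ctrl and 5 were lower, with 1 and 4 at 0mg and at 18mg. Hspb8, a partner of BAG3 in selective autophagy, was the higher one (1.02). Hspb7 (-1.61), Hspb6 (-1.05) and Hspb2 (-0.83), which are muscle-rich family members, were lower in AECII. Hspb11 (-1.86), listed with the family by its symbol, encodes the intraflagellar transport subunit IFT25. Smooth muscle markers were lower in AECII at the same time (8 of 8), and their part in this was not tested. The fifth lower gene, Cryaa, averaged 2.22 in AECII and 2.87 in PASMC, both below the array median of 2.98, and was not called at 0mg or 18mg.

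HSP70 exchange factors and cochaperones had 2 of 10 higher, Hspbp1 (0.92) and St13 (0.37), and 5 lower, led by Bag2 (-1.11), Hikeshi (-0.61), Bag6 (-0.44) and Sgta (-0.27). Bag3 was thus higher in AECII while Bag2, a relative that inhibits the ubiquitin ligase CHIP, was lower. Of the other HSP70 and HSP110 genes, Hspa12b, an HSP70 relative known from endothelium, was lower (3.01 ± 0.53 in AECII, against 6.04 ± 0.49 in PASMC; difference -3.03), Hspa13 was lower (-0.46) and Hspa4, which encodes the APG-2 exchange factor, was higher (0.18).

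The factor Hsf1 differed by -0.11 between control AECII and control PASMC (adjusted p = 0.447, limma), by -0.11 at 0mg and by -0.11 at 18mg, and was not called. Hsf2 differed by 0.22 at Ctrl (adjusted p = 0.342), by 0.60 at 0mg (adjusted p = 0.00674) and by 0.31 at 18mg (adjusted p = 0.174), and whether these 3 values differ from each other was not tested. Hsbp1, which encodes a small HSF1-binding protein, was lower in AECII at Ctrl (difference -0.56). HSF1 targets outside the chaperones were split, with Cacybp (0.54), Chac1 (0.54), Zfand5 (0.50) and Mrpl18 (0.49) higher, and Rgs2 (-2.83), Tcim (-2.21), Fbxo30 (-0.48) and Sqstm1 (-0.40) lower in AECII.

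Chaperones of other compartments were also divided at Ctrl. In the cytosolic chaperonin and prefoldin list 6 of 13 were higher, with Cct3 at 0.56, Cct6a at 0.43, Cct7 at 0.36 and Tcp1 at 0.33, and the prefoldin genes Pfdn5 (-0.57) and Vbp1 (-0.34) were lower. In mitochondria 4 of 10 were higher, Grpel2 (1.01), Hspa9 (0.56), Hspd1 (0.51) and Dnaja3 (0.32), and 3 were lower, Clpp (-0.58), Clpb (-0.51) and Lonp1 (-0.21). In the endoplasmic reticulum 7 of 16 were higher, led by the HSP70 relative Hspa5 (0.81), Creld2 (0.66), Sdf2l1 (0.63) and Manf (0.62), and 4 were lower, Sil1 (-0.76), P4hb (-0.34), Canx (-0.29) and the HSP90 relative Hsp90b1 (-0.22). The cytosolic and the reticulum HSP90 genes therefore had opposite signs.

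**Figure D4:**
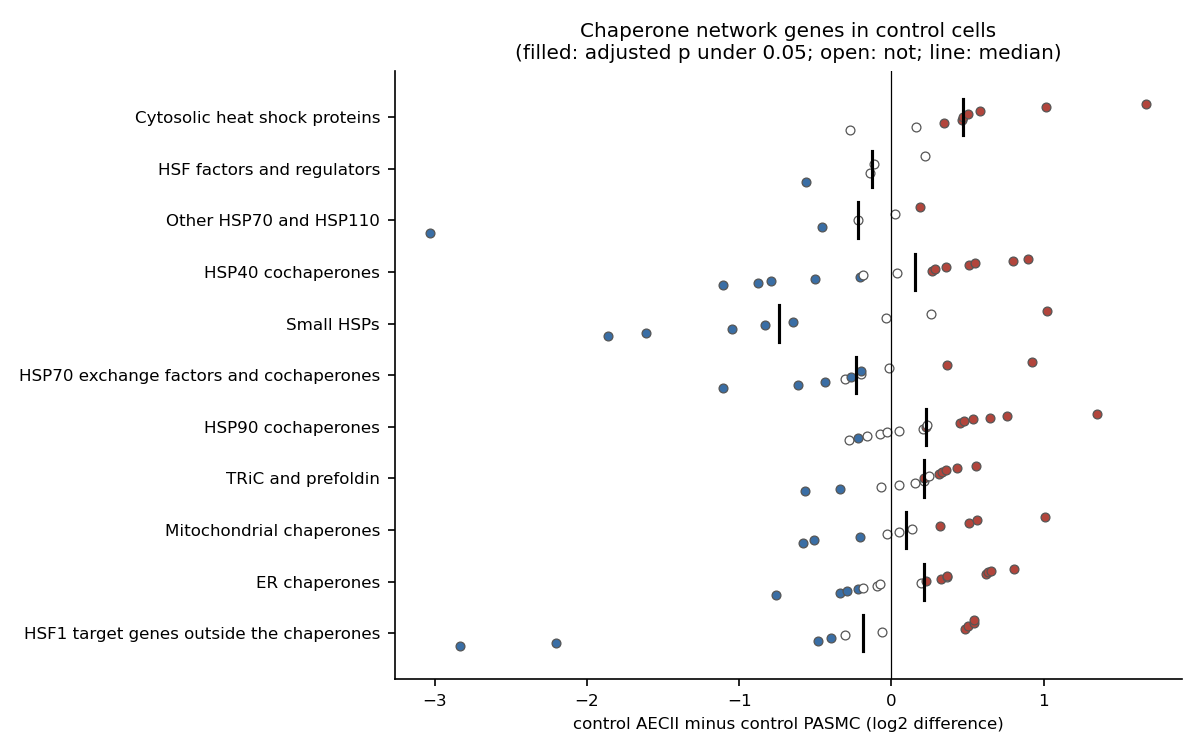
Difference between control AECII and control PASMC (log2, horizontal axis) for each tested gene of the heat shock set and of the 10 chaperone network lists, with filled points for an adjusted p under 0.05 and a line at each list's median. The small heat shock proteins have the lowest median, -0.74, and the heat shock set has the highest, 0.47.

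Variation between PASMC arrays was uneven. Hspb1 was at 13.66 to 14.40 (median 13.79) in the 9 PASMC arrays with an epithelial marker mean above 5, and at 12.72 to 13.54 (median 13.20) in the other 15, so that these arrays did not overlap. The ranges of every other member overlapped between the 9 and the 15 arrays. What share of all tested genes is separated by this split was not computed. The split was seen without overlap in Krt8 (8.16 to 10.62 in the 9 arrays and 2.54 to 5.83 in the 15), Krt18 (9.93 to 12.09 and 4.20 to 7.55) and Cdh1 (4.76 to 7.44 and 1.74 to 3.96), while Epcam stayed at or below 4.42 in all 24. The smooth muscle marker Acta2 was split the same way, at 15.33 to 15.46 in the 9 arrays and 14.33 to 15.15 in the 15. The highest Hspb1 level of each condition, 14.40 at Ctrl, 14.36 with 0mg and 14.29 with 18mg, came from an array that also had the highest Hsp90aa1 level of its group (13.06, 13.15 and 13.14). In these 3 arrays Sftpc, the surfactant gene that defines type II cells, was at 1.72, 2.07 and 2.00. In the other 6 of the 9 arrays Sftpc was above 6, and its median was 10.26 in the 9 arrays and 3.28 in the 15. The part of the epithelial and smooth muscle transcripts in the level of Hspb1 was not tested.

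Leaving out the 9 arrays, an alternative chosen after seeing the data, gave larger cell type differences for Hspb1 of 0.87 at Ctrl, 0.95 at 0mg and 0.88 at 18mg (SE 0.12 each), all called. These arrays held the highest Hspb1 levels in PASMC, so a larger difference had to follow from leaving them out. The 7 genes called in each condition were called without these arrays too, and Hspa8 was called at Ctrl as well (0.23, adjusted p = 0.0203). Extract differences of Hspb1 in PASMC were then -0.07 with 0mg and 0.01 with 18mg, with SEs of 0.14. With the PASMC arrays with Sftpc above 6 left out (3 of Ctrl, 4 of 0mg and 4 of 18mg), Dnajb1 was no longer called at 18mg (0.20, adjusted p = 0.128), and the other calls of the 7 genes held; the larger extract differences of Hspa1a and Dnajb1 in that setting are given above.

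Correlations between members were computed within 1 cell type on deviations from group means, with p from permutations within groups and adjusted over 108 pairs (36 in AECII and 36 in each of the PASMC sets of 15 and 9 arrays). Only the pair of Hspb1 and Hsph1 in AECII passed, with a Pearson r of -0.79 (permutation p = 3e-05, adjusted p = 0.00324, n = 24) and a Spearman rho of -0.79 (permutation p = 1e-05, the smallest the permutations can give, adjusted p = 0.00108). Without the 2 arrays farthest from the median of Hspb1 the r was -0.73. AECII arrays with higher Hspb1 levels had lower Hsph1 levels. The pairs Hspa4l with Hspb1 (r = 0.59, permutation, adjusted p = 0.0959) and Dnajb1 with Bag3 (r = 0.53, permutation, adjusted p = 0.101) in AECII did not pass.

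Correlations of the 9 genes with the 9 marker list means and with Sftpc gave 270 relations, of which 3 passed. In AECII Hspb1 correlated with Sftpc at a Pearson r of 0.73 (permutation p = 0.00015, adjusted p = 0.0342) and a Spearman rho of 0.76 (permutation p = 6e-05, adjusted p = 0.0162), and at 0.70 without the 2 farthest arrays. Hsp90aa1 correlated with the fibroblast markers in AECII at an r of 0.70 (permutation p = 0.00036, adjusted p = 0.0342), but its Spearman rho of 0.65 did not pass (permutation p = 0.0014, adjusted p = 0.126), and r was 0.58 without the 2 farthest arrays. In the 15 PASMC arrays Hspa4l correlated with the endothelial markers at an r of 0.86 (permutation p = 0.00038, adjusted p = 0.0342), a rho of 0.90 (permutation p = 0.00014, adjusted p = 0.0189) and 0.83 without the 2 farthest. The 9 PASMC arrays could hardly pass in either family, since with 3 arrays per condition the smallest p the exact permutation allows is 0.00463, and r spanned -0.98 to 0.97 there. The 24 arrays of each cell type come from cells of the same 8 mice, and the arrays of a mouse cannot be linked. The permutations of both families treat the arrays of a group as independent between conditions. Their p-values may be too small if the arrays of a mouse deviate together, which could not be tested.

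**Figure D5:**
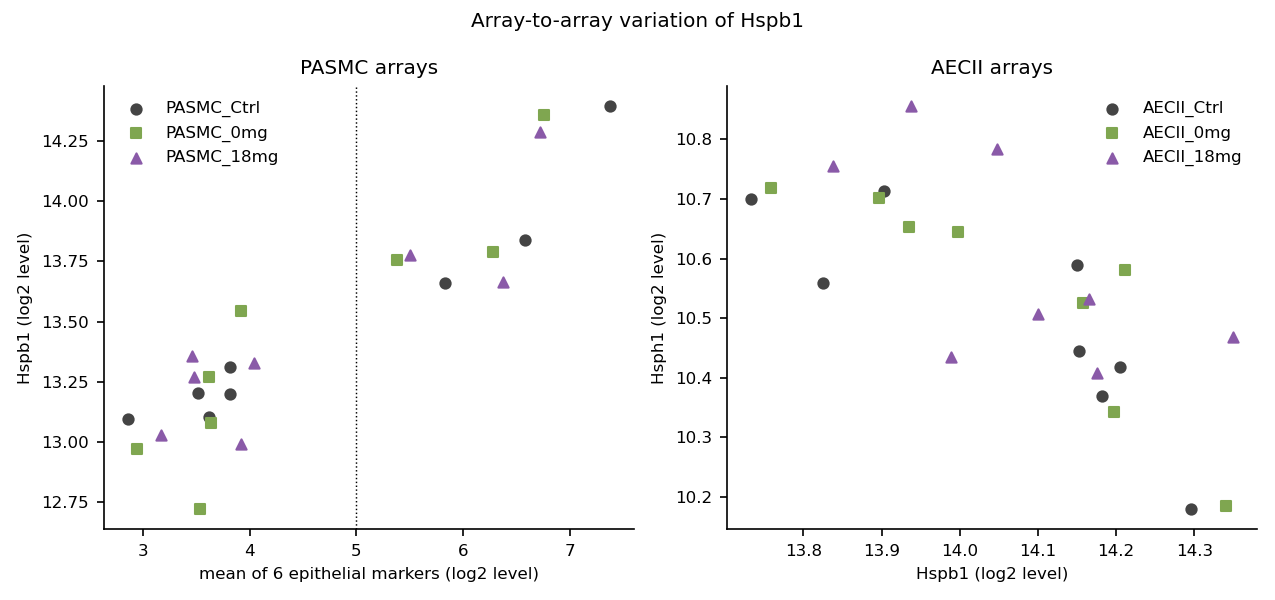
Left, Hspb1 level against the mean of 6 epithelial markers in the 24 PASMC arrays (both log2 levels), with a dotted line at 5. Right, Hsph1 level against Hspb1 level in the 24 AECII arrays (both log2 levels). The 9 PASMC arrays right of the line all lie above the 15 left of it, and in AECII the arrays slope downward.

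The genes most like the set were found by the Pearson correlation of a gene's deviations from the group means with the mean deviation of the 9 members over 24 arrays. In AECII they were Sh2d4a (0.85), Prkci (0.82), Emp2 (0.82), Clip1 (0.81), Niban2 (0.81), Zdhhc18 (0.80), Jund (0.80) and Ccdc68 (0.79), out of 14763 genes compared. In PASMC they were Traf4 (0.96), Gpatch4 (0.95), Gm2115 (0.95), Rbpms2 (0.95), Galnt18 (0.95), Olfr1372-ps1 (0.94), 1700009N14Rik (0.94) and Arpc5 (0.94), out of 14758. The PASMC values span the 9 and the 15 arrays described above, and within the 15 arrays the same 8 genes had r of 0.79 to 0.89. These are descriptions of arrays that share cultures and normalisation, and carry no test. The mean deviation was unscaled, so members with a larger SD weigh more (in PASMC 0.45 for Hspb1, against 0.07 for Hsp90ab1). In AECII the members had no common pattern, since the median r over their 36 pairs was 0.006 and 18 were positive.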

How the data were processed

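The authors deposited 1 log2 value per feature and array for 48 single-colour (Cy3) Agilent arrays (62976 features, 31465 with a gene name, 28 missing values). Every array has the same distribution of deposited log2 values, as quantile normalisation gives. Of tools, limma alone is listed, version unstated, per the submitters' processing notes. Intensities before normalisation and signal over background were not analysed here. Precision is limited by having 8 arrays in a group.

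Groups come from the labels. Features were named through the platform annotation and the RefSeq gene table of mouse assembly GRCm38.p6 (29050 by accession), and each gene was represented by its brightest feature. Genes whose mean exceeded the 30th percentile of all named features were tested: 14772 in AECII, 14767 in PASMC and 14775 over both. Models were fitted with limma 3.58.1 in R 4.3.3 (lmFit, eBayes), on 24 arrays for comparisons inside AECII or PASMC and on 48 for those between them, 13 comparisons in all, and the procedure was tested on simulated data. Correlations used 100000 permutations within groups, or all of them for 9 arrays.

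All members are named. For each chaperone list up to 4 called genes per direction, by size, are named, with Hsf1 and Hsf2 always, and the 8 genes most like the set in each cell type. Members, lists and markers were chosen with earlier results of these data known. Motifs were searched in RefSeq promoter windows. Arrays with the same replicate number did not deviate together (median correlation 0.04 in AECII and 0.02 in PASMC, over 0.1 in 4 and 9 of 24 pairs). The number was therefore not used as a pairing in the main fit. Arrays with different numbers reached a correlation of 0.31 in AECII and 0.67 in PASMC (over 0.1 in 27 and 58 of 168 pairs). A pairing by mouse cannot be read from the labels, so it was neither tested nor modelled. If the arrays of a mouse deviate together, p-values of the extract comparisons may be too large, which could not be tested. Alternatives were a replicate block, other filters, median centring, trend and robust variances, array weights, the mean of all probes, other sets of arrays in the fit, and leaving out each array. The epithelial marker mean, as a covariate or a reason to leave arrays out, and the other probes of Hspa8 and Hsph1 were added after seeing the data.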

Additional observations from a re-analysis of the deposited data

Results flagged for a closer look

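Each of 54 combinations of gene and group was checked for a single array set apart from the rest of its group of 8, by the gap to its neighbour over the whole range (limit 0.526). Chance flags about 1 group in 20, and 3 were found. Hsp90aa1 was lowest in AECII Ctrl array 6, at 13.04, with the next array at 13.21 (0.823 of the range). Hsp90aa1 was highest in PASMC 18mg array 5, at 13.14, with the next at 12.81 (0.675 of the range); this array also had the highest Hspb1 level of its group, 14.29, and an epithelial marker mean of 6.72. Hspa8 was lowest in PASMC 18mg array 8, at 14.12, with the next at 14.31 (0.566 of the range). No difference of response between the cell types was called for a member.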

How the results depend on the processing

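With the replicate number as a block, 8 members were called between the cell types at Ctrl, 7 at 0mg and 7 at 18mg, and 0 in every comparison with extract. The block changed 1 call, that of Hspa8 at Ctrl (0.16, adjusted p = 0.0295, limma). Over the alternatives listed above, no member was called in any of the 90 extract and response differences (lowest adjusted p 0.688). The difference of Hspa1a in PASMC with 18mg was 0.31 with all arrays and 0.22 to 0.64 over the alternatives, the highest without PASMC arrays with Sftpc above 6. Of the 90, 39 changed sign under at least 1 alternative, at sizes of at most 0.12. None of the 27 cell type differences changed sign, and the calls of 4 changed. These counts leave out the fits with another single probe of Hspa8 or Hsph1. Such a probe was called for Hspa8 at 0mg (0.23, adjusted p = 0.00219, limma). For 18mg against 0mg in AECII another Hspa8 probe gave 0.24, against -0.02 for the chosen one. Hspa8 at Ctrl was also called with trend and robust variances (adjusted p = 0.0420), array weights (0.20, adjusted p = 0.00993), the mean of its probes (0.28, adjusted p = 0.00309), without the 9 PASMC arrays rich in epithelial markers, and without PASMC Ctrl array 2 or 6 or AECII Ctrl array 7 or 8. Leaving out 1 array gave Hspa8 0.13 to 0.20 (adjusted p 0.0186 to 0.154). Hspa8 at 18mg was called with the mean of its probes (0.22, adjusted p = 0.0214), and Hsph1 at 18mg without PASMC 18mg array 1 (-0.38, adjusted p = 0.0433). Dnajb1 at 18mg lost its call without PASMC arrays with Sftpc above 6 (0.20, adjusted p = 0.128), where fewer arrays remain. Over all genes, the 18mg comparison in PASMC called 4 genes, 0 under the block and 13 with array weights, and both extracts pooled called 1, and 20 with array weights; the cause was not tested.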
